A study of Mus musculus with 2 samples.

Results

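The regions described here are EP300 peaks of newborn mouse liver that lay far from gene starts and carried a paired DNA word, a CTG followed by a GATA1 consensus, close to their summit. EP300 is a histone acetyltransferase that transcription factors bring to enhancers and promoters, and the peaks came from chromatin immunoprecipitation followed by sequencing (ChIP-seq) with an EP300 antibody. There was 1 group of 2 replicate libraries, from liver of strain B6NCrl mice at age 0 days, with sex not collected. Both libraries carried the same biosample and donor label, and the labels do not say whether that was 1 animal or a pool, so differences between the replicates may be technical only. No genotype change and no treatment is given in the labels, and there was no other tissue, age or mouse to compare with.

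A peak was included when its summit, the position where its signal was highest, lay more than 1 kb from every transcription start site (TSS) of a protein-coding gene and when the composite lay wholly within 50 bases of that summit. The composite was CTG, then 7, 8 or 9 bases of any kind, then WGATAA, where W is A or T, on either DNA strand. The deposited list made from both replicates by the irreproducible discovery rate (IDR) procedure held 26883 peaks. Of these, 26844 lay on chromosomes 1 to 19 and X, and 21237 of those were distal by this rule. Not every peak was found in both replicates' own lists. A summit within 100 bases was present for 95.7% of distal peaks in replicate 1 and for 87.6% in replicate 2. The composite was found in 2311 of the 21237 distal peaks, 10.9% (95% Clopper-Pearson interval 10.5 to 11.3, which covers counting error only, as all such intervals here do). These 2311 are called composite peaks. A further 5789 distal peaks held WGATAA in the same window without the composite, called GATA-only peaks, and 13137 held no WGATAA. The rule used sequence and position only, with no signal value and no gene list. It was, however, chosen with earlier results of these data known.

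GATA1 is the zinc finger factor that drives red cell and platelet precursor genes. In erythroid cells it binds together with TAL1, a basic helix-loop-helix factor that pairs with an E protein, through the bridging proteins LMO2 and LDB1, and the DNA this complex prefers is an E-box, or the CTG that ends one, a fixed distance before a GATA word. An E-box is a 6-base word of the form CANNTG. The liver is the main site of blood formation in the mouse fetus and still holds red cell precursors at birth, next to hepatocytes, which depend on other factors such as HNF4A, CEBPA and FOXA. In bulk liver, fewer cells of a type and less signal per cell cannot be told apart.

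The sequences below, from the GRCm38 (mm10) genome, show how the composite sits in the 50 bases on either side of a summit. The first 6 are pairs of the strongest composite peaks with 7, 8 and 9 bases between CTG and WGATAA, apart from the peak in Gypc, which had 8 bases between and a higher signal than those shown, and the last 4 are the strongest composite peaks within 50 kb of genes of 4 erythroid lists (Lyl1, Alas2, Sptb and Xpo7). Each is written 5′ to 3′ on the strand of its composite, and capitals mark CTG and WGATAA of the composite nearest the summit, which is the middle base.
Tmem33, 7 between, chr5:67280558-67280658, plus strand: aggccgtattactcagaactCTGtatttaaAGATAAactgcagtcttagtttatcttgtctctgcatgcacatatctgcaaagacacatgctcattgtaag
Nnt, 7 between, chr13:119232529-119232629, plus strand: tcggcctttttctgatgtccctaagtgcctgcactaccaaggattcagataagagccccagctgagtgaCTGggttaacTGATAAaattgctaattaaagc
Rhag, 8 between, chr17:40806774-40806874, minus strand: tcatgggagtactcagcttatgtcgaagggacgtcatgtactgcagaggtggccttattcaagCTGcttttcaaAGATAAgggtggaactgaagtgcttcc
Gpx1, 8 between, chr9:108340965-108341065, minus strand: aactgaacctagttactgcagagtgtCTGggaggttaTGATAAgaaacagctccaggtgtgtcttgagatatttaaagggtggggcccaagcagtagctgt
Olfr66, 9 between, chr7:103877260-103877360, plus strand: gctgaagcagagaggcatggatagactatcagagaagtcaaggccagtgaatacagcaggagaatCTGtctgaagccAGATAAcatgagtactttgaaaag
Olfr66, 9 between, chr7:103870815-103870915, minus strand: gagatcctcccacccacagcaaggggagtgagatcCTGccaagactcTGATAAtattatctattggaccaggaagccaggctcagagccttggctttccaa
Lyl1, 8 between, chr8:84730907-84731007, minus strand: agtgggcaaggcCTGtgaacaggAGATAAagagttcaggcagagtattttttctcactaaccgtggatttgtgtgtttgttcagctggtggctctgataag
Alas2, 8 between, chrX:150549783-150549883, minus strand: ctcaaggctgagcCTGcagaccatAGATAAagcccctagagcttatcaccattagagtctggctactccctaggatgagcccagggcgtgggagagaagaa
Sptb, 8 between, chr12:76670713-76670813, minus strand: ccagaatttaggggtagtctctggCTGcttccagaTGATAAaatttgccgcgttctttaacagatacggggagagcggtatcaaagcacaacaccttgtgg
Xpo7, 8 between, chr14:70713159-70713259, plus strand: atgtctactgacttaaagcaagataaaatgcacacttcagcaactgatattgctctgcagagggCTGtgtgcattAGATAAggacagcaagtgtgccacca

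The peak named Tmem33 lay in an intron of that gene, those named Sptb, Xpo7 and Alas2 in introns of those genes, the Rhag peak in an intron of the neighbouring Crisp2, and the Lyl1 peak in an intron of Nfix, 29.5 kb from the start of Lyl1. The Nnt peak, the Gpx1 peak and both Olfr66 peaks were intergenic. The Olfr66 peaks take their name from the nearest gene start, that of an olfactory receptor, and lay in the stretch upstream of Hbb-y, an embryonic beta-globin gene. The letters between CTG and WGATAA differ from sequence to sequence, whereas the distance is set by the rule. The 2311 composite peaks held 2260 distinct composite sequences, so a few letter strings occurred in more than 1 peak, but no pair of peaks held the same genomic site.

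Spacing of 8 bases was the most common. The composite nearest the summit had 8 bases between CTG and WGATAA in 1216 composite peaks (52.6%, interval 50.6 to 54.7), 7 in 640 (27.7%, 25.9 to 29.6) and 9 in 455 (19.7%, 18.1 to 21.4). A single composite was present in 2248 peaks, and 63 peaks had 2. Because the rule admitted only these spacings, the same pair was also counted at every spacing from 0 to 20 bases in all distal peaks. The pair occurred at 8 bases in 1234 peaks, at 7 in 652 and at 9 in 470, whereas the other spacings held between 202 (at 10) and 314 (at 15) peaks, 258 on average. The counts at 8, 7 and 9 were thus 4.78, 2.53 and 1.82 times that average. The spacings just outside the rule, 6 and 10, lay at 226 and 202 peaks, among the other spacings, so the excess ended within 1 base on either side.

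**Figure D1:**
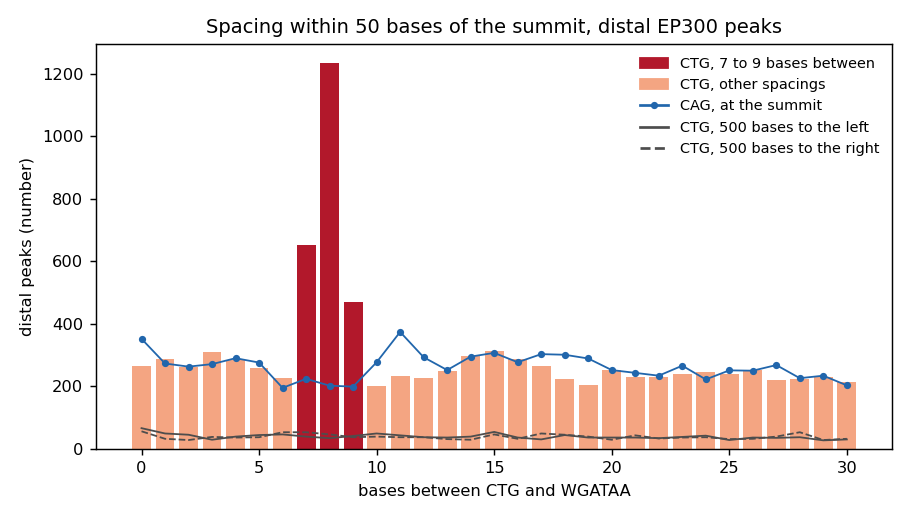
Number of distal peaks (vertical axis) with CTG before WGATAA at each number of bases between them (horizontal axis), within 50 bases of the summit and in windows 500 bases away, with the reversed word CAG for comparison. The count reaches 1234 at 8 bases, against 202 to 314 at spacings from 0 to 20 outside 7 to 9, and windows 500 bases away stay between 28 and 66 over spacings of 0 to 20.

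The count depended on the direction of the E-box word. With CTG turned round to CAG, spacings of 7, 8 and 9 held 224, 202 and 199 peaks. These lay at the low end of the range of 195 (at 6 bases) to 374 that CAG held over spacings of 0 to 20. Every spacing in that range outside 6 to 9 held 252 or more. The highest was 374 at 11 bases, where CAG followed by any base and TG opens an E-box ending 8 bases before WGATAA. In 81 of the 374 there was such an E-box in the form of the palindrome CAGCTG. Its last letters make the peak a composite peak, and those 81 had a median signal of 111. The 3 other E-boxes that start with CAG summed to 49 peaks, so most of the 374 had no E-box there. CAG was nearly as frequent with 0 bases between, in 352 peaks. Of all 64 possible 3-base words placed 7 to 9 bases before WGATAA, CTG was found in most peaks, 2311 near summits against 113 in windows 500 bases to the left. TGT followed with 1395 against 113, and GTG with 1114 against 95. Words such as TGT that share letters with CTG are counted in part from the same sites.

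The composite was concentrated at the summits. Windows of the same length centred 500 bases to the left and to the right of the 21237 distal summits held it in 113 (0.532%) and 136 (0.640%) cases, against 2311 (10.9%) at the summits, a difference of 20.5 and 17.0 times. WGATAA by itself was in 8100 summit windows (38.1%), against 9.73% on the left and 10.04% on the right, a difference of 3.92 and 3.80 times. Among windows with WGATAA, the composite was present in 28.5% at summits (interval 27.5 to 29.5), against 5.47% and 6.38% in the flanks. The excess of the pair was therefore larger than that of its GATA word.

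Most composites lay within 20 bases of the summit. The centre of the composite was at a median of 17.5 bases from the summit. It was within 10 bases in 676 composite peaks (29.3%), within 20 in 1326 (57.4%) and over 30 in 435 (18.8%). The composite pointed along the plus strand in 1202 peaks (52.0%, interval 49.95 to 54.1). The sharpness of this profile was not fixed by the window, since composites were searched for up to 500 bases away in all distal peaks and were most frequent at the summit. The plot of position has a small shoulder on the left, 64 peaks (0.301%) in the 20 bases around 220 to the left of the summit against 31 (0.146%) at the same distance on the right. That distance is also the one at which this peak list holds many pairs of summits, whose values are given with the signal.

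**Figure D2:**
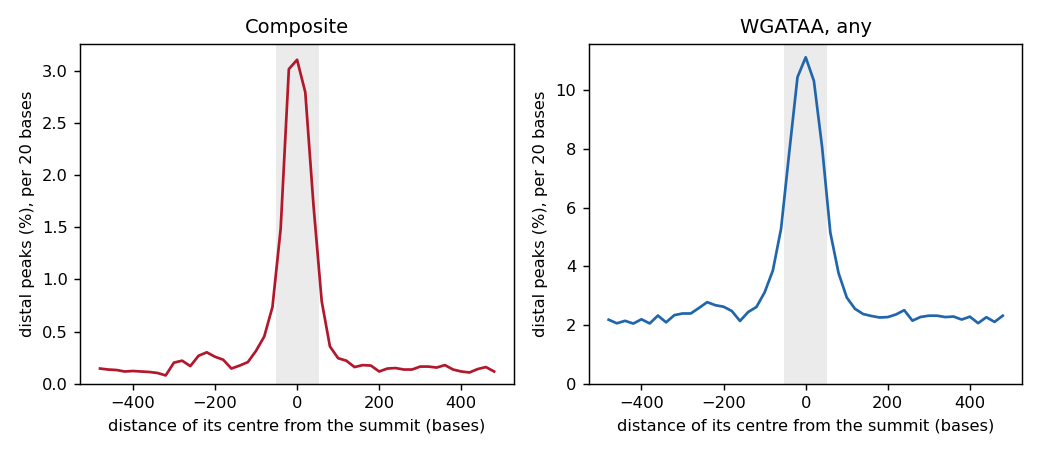
Percent of the 21237 distal peaks with a composite (left panel) or any WGATAA (right panel) centred in each 20-base step (vertical axes), by distance from the summit in bases (horizontal axes), with the window of the rule shaded. The composite share is 3.10% at the summit, and the shoulder 220 bases to the left holds 0.301%.

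The letters around the fixed ones were nearly even, with a few exceptions. Among the 1216 composite peaks with 8 bases between, the base just before CTG was A in 14.0%, and the base just after CTG was A in 10.3%, the least frequent letter at both places. Of the 2 bases before WGATAA, the first was most often A (36.2%) and the second C (34.7%). The middle of the gap showed no preferred letter, with every base between 22.5% and 28.7% in the 4 positions before those. The first letter of WGATAA was A in 62.1% of the composite peaks, and in 61.9% of distal peaks with the pair only at another spacing. The base after WGATAA was G in 48.9% of composite peaks, against 42.1% at other spacings, which completes the longer GATA site often described for GATA1.

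A whole E-box of the form CANCTG, with CTG as its end, was present in 288 composite peaks (12.5%, interval 11.1 to 13.9), against 8.52% of peaks with the pair at another spacing. Among those 288, CAGCTG was the most frequent, with 145 peaks and a median signal of 109. CATCTG was in 84 with a median of 88.6, CAACTG in 31 with 63.9 and CACCTG in 28 with 86.3. When all 16 forms of CANNTG that end 8 bases before WGATAA were counted over all distal peaks, CAGCTG came first with 81 peaks and CATCTG followed with 57. CAGGTG, which does not end in CTG and so stands outside the rule, was next with 30 peaks, none of them a composite peak, and a median signal of 92.4. CACCTG, the same word read on the other strand, was in 17 peaks with a median of 115. These counts by whole E-box were chosen after the data were seen, they are small, and no test was made between them.

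Composite peaks were stronger than the other distal peaks. The signal value of the deposited list, the enrichment score that the peak calling gave each peak and whose scale the labels do not state, had a median of 71.3 in composite peaks, with quartiles of 39.3 and 148. It was 47.9 in GATA-only peaks (30.4 and 92.2), 33.8 in peaks without WGATAA (24.6 and 51.2) and 36.8 in all 18926 other distal peaks. The classes overlapped widely: composite peaks ran from 7.33 to 590, and other distal peaks from 7.32 to 633. Median signal in composite peaks was 1.94 times that of other distal peaks and 1.49 times that of GATA-only peaks, or 0.96 and 0.57 on the log2 scale. Since there was 1 group and peaks of 1 tissue are not replicates of it, no test was made, and the check of these differences is their size in each replicate.

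Both replicates ordered the classes alike. In the list of replicate 1, the median signal was 47.6 in composite peaks, 32.6 in GATA-only peaks and 23.6 in peaks without WGATAA. In the list of replicate 2, the medians were 25.4, 17.7 and 12.6 in the same order. The log2 ratio of composite to other distal peaks was 0.89 in replicate 1 and 0.88 in replicate 2, and that of composite to GATA-only peaks was 0.55 and 0.52. A summit within 100 bases was found for 2294 composite peaks (99.3%) in replicate 1 and for 2232 (96.6%) in replicate 2, against 95.2% and 86.5% of other distal peaks. Of the 2221 composite peaks found in both, Spearman's rho between the replicates' signals was 0.925. The points share a tissue sample and were selected as reproducible, so this rho describes the lists only. Replicate 1 values were higher than replicate 2 values by a median of 0.85 on the log2 scale (SD 0.52 over the 2221 peaks), so values are compared within a list here.

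**Figure D3:**
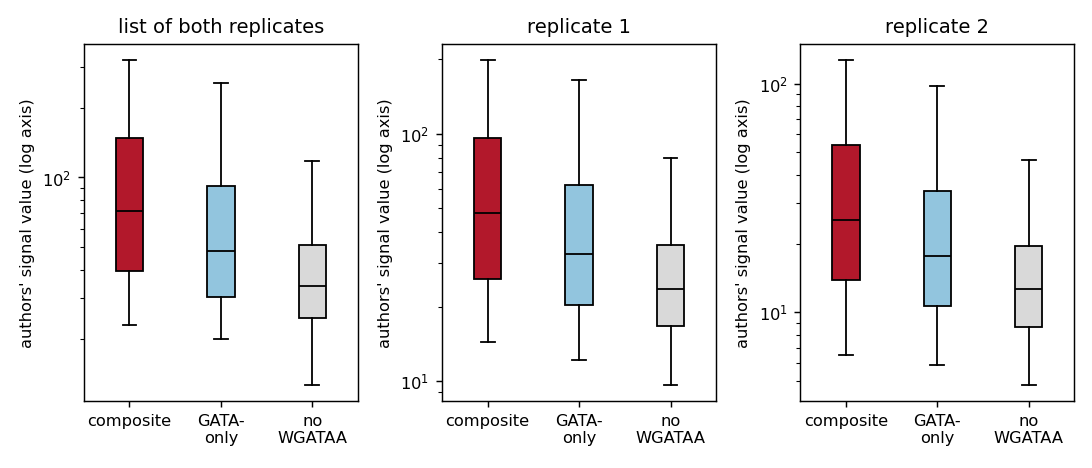
Signal value (vertical axis, log scale) of composite peaks, GATA-only peaks and distal peaks without WGATAA in the list of both replicates and in each replicate's own list, where boxes give the quartiles with the median and whiskers run from the 5th to the 95th percentile. Composite peaks have the highest median in all 3 lists, 71.3, 47.6 and 25.4, and the ranges of the classes overlap.

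Among the strongest distal peaks, the composite was frequent but did not mark the top alone. The strongest 20% of distal peaks by signal held 1069 composite peaks (46.3% of all composite peaks, interval 44.2 to 48.3), against 29.8% of GATA-only peaks and 11.1% of peaks without WGATAA. From the strongest 20% to the weakest, in 5 equal steps, composite peaks made up 25.2%, 11.7%, 7.91%, 5.89% and 3.74% of distal peaks. They were 29 of the 100 strongest (interval 20.4 to 38.9), 175 of the 500 strongest (35.0%) and 365 of the 1000 strongest (36.5%). The share was lower at each step down, but no increase was visible within the top 1000. The weakest 159 composite peaks were in the weakest 20%, so the composite was also found at weak peaks.

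The stricter lists gave the same order. The conservative list, a second list deposited with the series, covered 76.3% of distal peaks and 2073 composite peaks (89.7%), against 83.0% of GATA-only peaks and 70.9% of peaks without WGATAA. Peaks among the highest of both replicates made up 61.4% of distal peaks and 1927 composite peaks (83.4%), against 71.6% and 53.0%. Entry into these lists rests on the strength and rank of a peak, so these shares are not independent of the difference in signal.

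A feature of the lists touches the weaker classes more than the composite peaks. The list of both replicates held 2127 pairs of summits 180 to 260 bases apart, and the peak at the lower coordinate was the stronger one in 2055 of them (96.6%), with median signals of 39.7 on the left and 15.1 on the right. At 300 to 600 bases apart the left peak was stronger in 153 of 333 pairs (45.9%). Of the composite peaks, 26 (1.13%) were on the right of such a stronger neighbour, against 3.39% of GATA-only peaks and 8.94% of peaks without WGATAA. Without them, the medians were 72.0 in composite peaks, 49.2 in GATA-only peaks and 35.5 in peaks without WGATAA, so the order and the size of the differences were nearly the same.

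Within the composite peaks, signal varied with the spacing. The median was 78.8 with 8 bases between, 65.3 with 7 and 64.6 with 9, and 50.1%, 43.0% and 40.7% of these peaks were in the strongest 20%. In replicate 1 the medians were 51.6, 42.7 and 42.8, and in replicate 2 they were 27.7, 23.4 and 22.8, for 8, 7 and 9 bases. Thus 8 bases ranked first in each list, and 7 and 9 differed from each other by little and not in the same direction in every list. Distal peaks with the pair at another spacing of 0 to 20, and no composite, had medians of 45.3 to 59.0, below the 3 spacings of the rule. When peaks that also held a composite were kept at those other spacings, as in the counts of spacing, the medians ran from 50.2 (at 12 bases) to 67.3 (at 20), so that 20 bases and 5 bases (67.0) then lay above 7 and 9 bases (65.5 and 64.6) and below 8 (79.2). In replicate 1 the highest of those other spacings was 44.4, at 13 bases, against 42.9 at both 7 and 9.

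**Figure D4:**
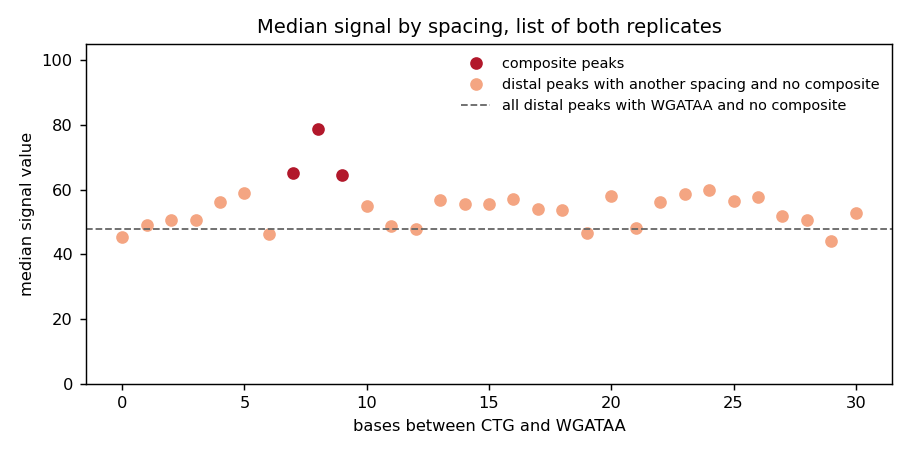
Median signal value (vertical axis) of distal peaks by number of bases between CTG and WGATAA (horizontal axis), composite peaks at 7 to 9 and distal peaks without the composite at the remaining spacings, with the median of GATA-only peaks as a dashed line. The medians are 65.3, 78.8 and 64.6 at 7, 8 and 9 bases, and 45.3 to 59.0 at other spacings from 0 to 20, where peaks that also held a composite are left out.

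Other features of the sequence went with signal too. Composite peaks with 2 composites had a median of 124 (63 peaks), against 70.5 in those with 1. Those with a whole E-box had 88.8, against 68.7 in those without, and the values were 57.6 against 45.5 in replicate 1 and 32.3 against 24.5 in replicate 2. With 8 bases between and a whole E-box the median was 103 (168 peaks), the highest of the 6 combinations of spacing and E-box. A second WGATAA in the window went with higher signal in both classes: with 1 WGATAA the median was 66.9 in 1640 composite peaks and 45.6 in GATA-only peaks, and with 2 it was 84.1 in 614 composite peaks and 61.4 in GATA-only peaks. The difference between the classes was therefore present at an equal number of GATA words. Composite peaks with the centre within 10 bases of the summit had a median of 76.3, against 62.2 where it was over 30 bases away, and those with A or T as the first letter of WGATAA had 70.6 and 72.5.

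The edges of the rule separated neighbouring values only by degree. Composite peaks whose composite reached 41 to 50 bases from the summit had a median signal of 62.7 (325 peaks), and peaks whose composite reached 51 to 60 bases, just outside, had 52.0 (227 peaks). Peaks with 6 or 10 bases between, and none of the spacings of the rule, had 46.3 (194 peaks) and 55.0 (169 peaks). Composite peaks 1 to 1.5 kb from a TSS had 111 (63 peaks), and peaks with the composite 0.5 to 1 kb from a TSS, which the rule leaves out, had 87.5 (77 peaks). Among all 5607 peaks within 1 kb of a TSS, the composite was present in 197 (3.51%, interval 3.05 to 4.03).

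Words of other factors were searched on both strands of the same window, and those of hepatocyte factors were less frequent in composite peaks than in peaks without WGATAA. The CEBP word TTGCNNAA was in 116 composite peaks (5.02%) and 12.2% of peaks without WGATAA, with 9.84% of all distal peaks holding it. The nuclear receptor word AGGTCA was in 5.50% and 12.6% (10.1% of all distal peaks), the FOXA word TGTTTAC in 1.99% and 4.08% (3.4%), and the HNF4A word CAAAGTYCA, where Y is C or T, in 0.346% and 1.78% (1.36%). In windows 500 bases from the composite peaks, the CEBP word was in 3.33%, AGGTCA in 6.58%, TGTTTAC in 1.25% and the HNF4A word in 0.260%. The share of AGGTCA at composite summits was thus no higher than beside them. GATA-only peaks were close to composite peaks in these words, with 6.39% for CEBP and 6.22% for AGGTCA.

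The words of blood factors gave a mixed picture. The MYB word YAACNGH, where H is A, C or T, was in 708 composite peaks (30.6%), in 30.1% of GATA-only peaks and in 22.6% of peaks without WGATAA, with 25.5% of all distal peaks and 16.7% of the windows beside composite peaks. The TAA that ends WGATAA can begin this word, and CTG followed by TT can belong to it on the other strand. Its shares in the classes with WGATAA are therefore in part set by the words that define them. The RUNX word TGTGGTY was in 6.10%, 6.94% and 5.40% (5.9% of all distal peaks). The CACCC-type word CCNCNCCC, which Krüppel-like factors such as KLF1 bind, was in 9.91%, 9.90% and 11.7% (11%). Median signal in composite peaks was 82.5 in the 229 with CCNCNCCC, against 70.7 without it. Other words went in both directions. The median was 84.8 with the HNF4A word (8 peaks) against 71.3 without, and 59.4 with AGGTCA against 71.6. With the STAT and ETS words given next it was 56.0 against 72.0 and 43.7 (22 peaks) against 71.4. The AP-1 and NFE2 core TGASTCA, where S is C or G, was in 3.55% of composite peaks and 5.85% of peaks without WGATAA (5.01%), and the STAT word TTCNNNGAA was in 3.68% and 5.91% (5.41%). The ETS word CCGGAAR, where R is A or G, was in 0.952% and 2.46% (1.95%), the HNF1 word in 0.0433% and 0.183% (0.127%) and the CTCF core in 0.130% and 0.327% (0.235%). An E-box CANNTG anywhere in the window was in 50.9% of composite peaks, 50.3% of GATA-only peaks and 46.2% of peaks without WGATAA (47.8%), so the classes differed less in E-boxes counted at any place. Composite peaks hold CTG by the rule, and in 288 of them it ends an E-box, so their share is in part set by the rule. A match describes the letters and is no evidence that the factor was bound.

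Composite peaks lay in introns more often than other distal peaks. They were intronic in 1318 cases (57.0%), exonic in 73 (3.16%) and intergenic in 920 (39.8%), against 50.5%, 2.97% and 46.5% of other distal peaks. GATA-only peaks were between, at 54.9% intronic. The distance to the nearest protein-coding TSS was about the same, a median of 18.2 kb for composite peaks and 19.1 kb for other distal peaks, with 33.8% and 33.0% within 10 kb and 11.8% and 12.3% over 100 kb. Median signal was 70.6 in intronic, 72.1 in exonic and 71.5 in intergenic composite peaks, which are close to each other. The composite lay mostly in repeat sequence in 118 peaks (5.11%), whose median was 63.0 against 71.7 in the others. The summit itself was in repeat sequence in 7.23% of composite peaks and 9.94% of other distal peaks.

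Chromosome X held few distal peaks but a higher share of composites. On X, 56 of 316 distal peaks were composite peaks (17.7%), against 2255 of 20921 on the autosomes (10.8%), where the share ran between 8.70% on chromosome 8 and 12.7% on chromosome 4. WGATAA was also more frequent there, in 51.9% of distal peaks on X and 37.9% on the autosomes. Among peaks with WGATAA the composite was in 34.1% on X and 28.4% on the autosomes. The X-linked genes with composite peaks nearby included Gata1 and Alas2, described with their lists, the blood group gene Xk with a signal of 120 and the membrane skeleton gene Mpp1 with 73.3.

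The 15 strongest composite peaks ranked between 4 and 57 among all distal peaks. The first was in an intron of Gypc, which encodes the red cell surface protein glycophorin C, with a signal of 590 (329 in replicate 1 and 268 in replicate 2) and 8 bases between. A peak upstream of the beta-globin genes, nearest to Olfr66, followed with 570 (341 and 236), and Tmem33, which encodes a membrane protein of the endoplasmic reticulum, with 553 (316 and 236). The intergenic peak 176 kb from Nnt, the nicotinamide nucleotide transhydrogenase gene, had 525 (307 and 220). The peak 4.30 kb from Rhag, which encodes the Rh-associated glycoprotein of the red cell membrane, had 509 (299 and 205), and that 1.74 kb from Gpx1, the gene of a glutathione peroxidase abundant in red cells, had 507 (297 and 208). All 6 were high in both replicates, within rank 28 of replicate 1's list and rank 41 of replicate 2's.

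Others of the 15 were nearest to Slc16a10 (signal 484), Sptb (479), Olfr66 again (478), Med13l (466), Xpo7 (465), Tmem9 (463), Gse1 (457) and St3gal5 (455). Sptb encodes the beta-spectrin of the red cell skeleton, Xpo7 a nuclear exportin used in red cell maturation and St3gal5 the synthase of the ganglioside GM3. The Slc16a10 composite was in repeat sequence. Distances differed widely in this group. The Nnt, Gse1 and Med13l peaks lay 176, 116 and 71.5 kb from the gene start that names them, and the Olfr66 peaks lay at 4.93 and 11.4 kb from an olfactory receptor gene although globin genes are in the same stretch. The nearest gene is a label of place, not a target.

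Near genes of the 6 erythroid lists as a whole, composite peaks were more frequent and had a higher median signal than near hepatocyte genes. A composite peak lay within 50 kb of a TSS for 14.8% of 21646 protein-coding genes, and for 27.3% of the 11718 genes with any distal peak at that distance. For 106 genes in 6 erythroid lists it did for 53 (50%), which is 52.5% of the 101 with any distal peak. For 82 genes in 3 hepatocyte lists it did for 13 (15.9%), or 17.3% of the 75 with any distal peak. Of the distal peaks within 50 kb of the erythroid genes, 77 of 488 were composite peaks (15.8%, interval 12.7 to 19.3), against 14 of 294 near the hepatocyte genes (4.76%, interval 2.63 to 7.86) and 10.9% of all distal peaks. The 6 erythroid lists differed among themselves, from 25.8% near globin genes (8 of 31 peaks) to 10.8% near red cell surface genes (12 of 111), about the share in all distal peaks. Some lists of other cell types were as high on few peaks, with 6 of 27 near skeletal muscle genes (22.2%, interval 8.62 to 42.3), 3 of 10 near lymphoid genes (30%, interval 6.67 to 65.2) and 2 of 11 near macrophage genes (18.2%, interval 2.28 to 51.8), so a high share was not particular to the erythroid lists. The median signal of the composite peaks was 168 near erythroid genes, where the other distal peaks had 41.7, and 37.5 near hepatocyte genes, where the others had 42.2. Genes of a list share peaks where they are neighbours, and the lists were made with earlier results of these data known.

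**Figure D5:**
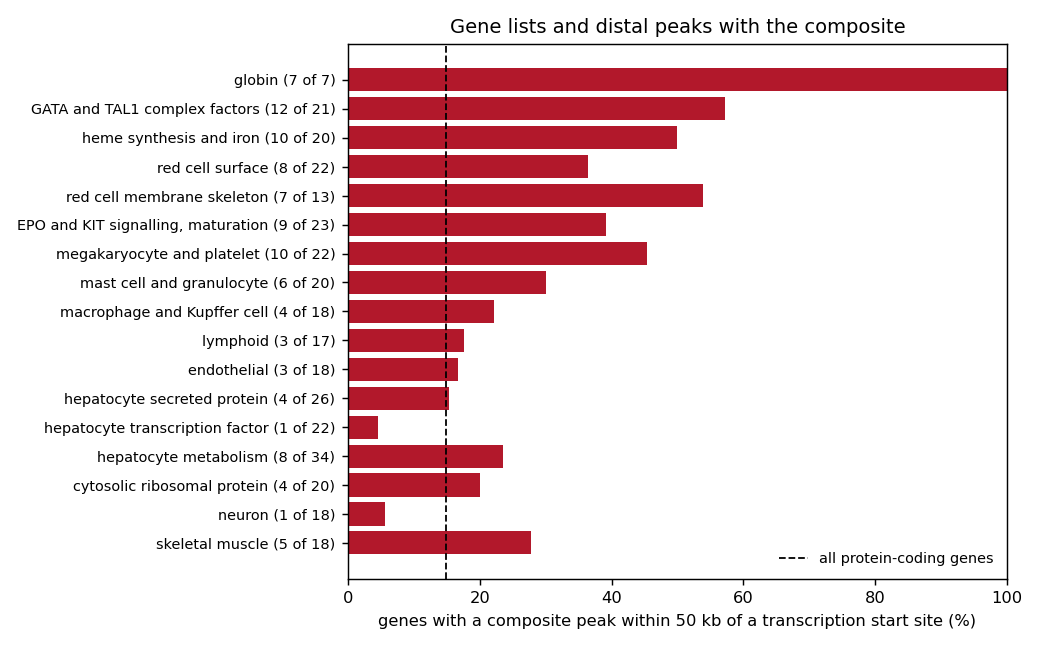
Percent of the genes of each list with a composite peak within 50 kb of a TSS, for 17 lists, with the 14.8% of all protein-coding genes as a line. All 7 globin genes have one, and the hepatocyte transcription factor list has it at 1 of 22 genes.

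All 7 globin genes had a composite peak within 50 kb. In the beta-globin locus, 4 composite peaks in the stretch upstream of Hbb-y had signals of 570, 478, 363 and 195. A further 2 near Hbb-bt, an adult beta-globin gene, had 232 and 64.9. Another, nearest to Olfr65 and over 50 kb upstream of Hbb-y, had 232. Hbb-y, an embryonic beta-globin gene, had 6 composite peaks among 17 distal peaks within 50 kb, and Hbb-bh1, Hbb-bh2 and Hbb-bs had 7 among 18 each, largely the same ones. The signals given here are not the full set for those last genes. The other strong peaks of that locus did not all carry the composite: those with signals of 433 and 426 held no WGATAA within 50 bases of the summit. The 3 alpha-globin genes Hba-x, Hba-a1 and Hba-a2 shared 1 composite peak, in an intron of Nprl3, with a signal of 303 (174 in replicate 1 and 128 in replicate 2). The stronger peaks of that locus, with 603 and 556, held WGATAA but no composite. The globin genes are near-identical copies in part, and the labels do not state how reads with several matches were counted, which leaves values close to these genes uncertain.

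Among GATA1, TAL1 and the factors that work with them, 12 of 21 genes had a composite peak within 50 kb. The strongest was that 29.5 kb from Lyl1, a close relative of Tal1, with a signal of 393 (252 and 140 in replicates 1 and 2). Sox6, a repressor of embryonic globin genes, had 3 such peaks, the strongest of 369 (234 and 132) in its own intron. Cbfa2t3, which encodes the corepressor ETO2 of the GATA1 and TAL1 complex, had 4, up to 365 (217 and 148), and Runx1, a factor of early blood cells and platelets, had 1 of 273 (183 and 94.0). The complex's own members were among these genes: Gata1 had 2, up to 220 (143 and 81.0) in its intron, and Tal1 had 1 of 108 (72.8 and 37.6) at 8.03 kb. Lmo2, Ldb1, Tcf3, Klf1 and Nfe2 had distal peaks within 50 kb but none with the composite. Composite peaks near this list had a median signal of 220, against 37.3 in the other distal peaks there.

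Of the heme and iron genes, 10 of 20 had a composite peak within 50 kb. Alas2, which encodes the first enzyme of heme synthesis in red cells, had 1 in an intron, 2.37 kb from the TSS, with a signal of 390 (227 and 162). Fech, which encodes ferrochelatase, the last enzyme, had 382 (225 and 159) at 1.22 kb, and Cpox, an enzyme between them, had 336 (204 and 126). Snx3, a sorting nexin that recycles the transferrin receptor, had 298 (185 and 112), and Tfrc, that receptor itself, 66.4 (42.9 and 23.5). The enzymes Alad, Uros, Urod and Ppox had distal peaks in range and no composite among them.

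Red cell surface and skeleton genes had a composite peak in 8 of 22 and 7 of 13 cases. Beside Gypc and Rhag, the surface list held Aqp1, the water channel, with 4 composite peaks and a strongest value of 388 (235 and 157), and Bsg, the immunoglobulin-like protein basigin, with 209 (125 and 84.1). The band 3 gene Slc4a1, Kel, Car1 and Car2 had distal peaks and no composite. In the skeleton list, Sptb had 479 (295 and 185), Ank1, the ankyrin that ties spectrin to the membrane, 341 (213 and 127) and Epb41, protein 4.1, 289 (192 and 94.1). The beta-spectrin and ankyrin peaks were thus stronger than the protein 4.1 peak in both replicates.

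In the list of erythropoietin and KIT signalling, survival and maturation, 9 of 23 genes had one. Xpo7 had 465 (278 and 187), Ncoa4, the receptor that sends ferritin to degradation, 3 up to 346 (213 and 131), Pim1, a survival kinase, 330 (218 and 112) and Bcl2l1, which encodes BCL-XL, 265 (167 and 94.5). Epor and Kit had distal peaks in range but no composite. The Pim1 peak lay 46.8 kb from its gene start, the Bcl2l1 peak 18.9 kb, the Xpo7 peak 5.17 kb and the Ncoa4 peak 2.94 kb.

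Megakaryocyte and platelet genes, which use GATA1 too, had a composite peak in 10 of 22 cases. Mmrn1, multimerin of platelets, had 314 (185 and 130), Tubb1, the platelet beta-tubulin, 160 (107 and 51.0), Nbeal2, a gene needed for platelet granules, 155 (102 and 49.0) in an intron of the neighbouring Ccdc12, and Gp9, part of the von Willebrand factor receptor, 130 (72.2 and 57.4). Their composite peaks had a median signal of 75.9, below the 220 of the GATA and TAL1 factor list and above the 35.9 of other distal peaks nearby. Of other blood and vessel lists, 6 of 20 mast cell and granulocyte genes, 4 of 18 macrophage genes, 3 of 17 lymphoid genes and 3 of 18 endothelial genes had one. The strongest were 71.7 near Mpo, myeloperoxidase, 150 near the complement genes C1qa, C1qb and C1qc, which share it, 135 near Lck, a T cell kinase, and 121 near Eng, endoglin. None of these genes was within 10 kb of its peak except Ms4a2, the beta chain of the IgE receptor, with 40.4 at 1.77 kb, which is named here after its value was seen.

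Hepatocyte genes had a composite peak within 50 kb about as often as all protein-coding genes, 15.9% against 14.8%. Among genes with any distal peak at that distance they had one less often, 17.3% against 27.3%. Few of the distal peaks near hepatocyte genes were composite peaks, and most of those were weak. Among secreted proteins, 4 of 26 genes had one: Ahsg and Fetub, the fetuin genes, shared one of 173 (106 and 66.1), Hp, haptoglobin, had 81.0 and Ttr, transthyretin, 18.7. Among transcription factors only Rxra did, with 128 (78.7 and 47.1), of 22 genes. Of 34 metabolism genes 8 did (23.5%), with Ugt1a1, the bilirubin conjugating enzyme, at 300 (190 and 108), Fah, the last enzyme of tyrosine breakdown, at 210 and Cyp7a1, which sets the rate at which bile acids are made, at 42.1. This Fah peak lay 44.8 kb away and was nearest to Zfand6. A second composite peak, of 187 (118 and 65.2), lay in an intron of Fah itself, 18.7 kb from its start. The 9 composite peaks near metabolism genes had a median of 32.8.

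The lists of genes that liver blood cells and hepatocytes share or lack gave a further comparison. Of 20 cytosolic ribosomal protein genes 4 had a composite peak within 50 kb, with Rpl3 at 346 (196 and 150), 39.0 kb away and nearest to Tab1. Of 18 neuron genes 1 did, Tubb3 at 71.3, and of 18 skeletal muscle genes 5 did. The muscle genes were Cacna1s with 463 (279 and 180), whose peak is the Tmem9 peak 37.7 kb away, Mylpf with 230, Tnnc2 with 169, Tnni2 with 133 and Actn3 with 46.8. They were 5 of the 8 muscle genes with any distal peak at that distance (62.5%), and the 6 composite peaks near them had a median signal of 151. At 10 kb instead of 50 kb, none of the muscle genes had one, and 28 of the 106 erythroid genes did (26.4%), against 5 of 82 hepatocyte genes (6.10%) and 3.99% of all protein-coding genes. The strongest peaks at 50 kb of Rpl3 and of the muscle genes were all nearest to other genes.

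Most composite peaks stood alone. They had 1872 distinct nearest genes, of which 1528 were nearest to 1 composite peak, 344 to 2 or more and 16 to 4 or more, and 559 (24.2%) had no protein-coding TSS within 50 kb. Joining composite peaks whose summits were at most 12 kb apart gave 139 stretches with 2 or more, which together held 293 composite peaks (12.7%), and 12 stretches had 3 or more. The beta-globin stretch, chr7:103854861-103877310, held 4 with a summed signal of 1606. The largest by number had 5, at Glrx5, whose product serves iron-sulfur cluster assembly, chr12:105025795-105041187, with a summed signal of 663.

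Outside the globin genes, Nt5c2, a cytosolic nucleotidase gene, had the most composite peaks within 50 kb, 6 of 12 distal peaks. The strongest had a signal of 324 (203 in replicate 1 and 119 in replicate 2) and 7 bases between. Bpgm, which encodes the enzyme that makes the red cell's bisphosphoglycerate, had 5 of 8 distal peaks, and Glrx5 had 5 of 15. The last 2 fell outside the rule that chose the named genes and are named after their values were seen. At Bpgm the composite peaks had signals of 337, 124, 116, 75.8 and 46.5, the strongest with 207 in replicate 1 and 128 in replicate 2. At Glrx5 they had 224, 213, 113, 106 and 7.67, so the count includes a peak near the lower end of the list.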

How the data were processed

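Peak lists were used as deposited, on mm10 per the labels: the list of both replicates by IDR (optimal), the conservative list and 1 list per replicate. The deposited signal value per peak and the IDR score are scores of the authors' peak calling. The aligner, the caller, their settings and the read depth are not stated in the labels or files, and depth is therefore unknown. Columns belonging to other series numbered 0. Summits were the deposited start plus summit offset. TSS were those of protein-coding transcripts of protein-coding genes in GENCODE mouse release 21 (M21), sequence was GRCm38, and 339 of 342 listed genes matched. Python 3.11.15 with numpy 2.4.6, pandas 2.3.3 and scipy 1.17.1 searched both strands and computed counts, medians and 95% Clopper-Pearson intervals. The search was tested on simulated sequence. No p-value was computed. Genes named were those nearest the 15 strongest composite peaks, up to 5 with the most composite peaks within 50 kb, and up to 4 per list by strongest composite peak. Gata1, Tal1, Tfrc, Xk, Mpp1, Actn3, Bpgm, Glrx5, Ms4a2 and the genes given as having no composite peak were named after their values were seen. The composite rule and the gene lists were chosen with earlier results of these data known. Some genes of the named set are not reported here.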

Additional observations from a re-analysis of the deposited data

How the results depend on the processing

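Alternatives to the list, the window, the words and the distances changed no direction. Leaving out either replicate gave 2113 to 2290 composite peaks, a share with 8 bases between of 53.0% to 53.3%, an excess of 7 to 9 bases over the other spacings of 2.90 to 2.95 times (2.95 with both, as the mean share per spacing from 0 to 20, divided by the number of places the pair can take in the window), and log2 ratios of median signal of 0.86 to 1.05 against other distal peaks and 0.51 to 0.65 against GATA-only peaks. A window of 25 bases gave 1145 composite peaks and an excess of 3.12, one of 100 bases a share with 8 between of 49.97% and an excess of 2.57. A whole E-box CANNTG in place of CTG gave 643 peaks, an excess of 3.30 and log2 ratios of 1.15 and 0.72. The stronger 50% of distal peaks gave 55.1%, 3.20, 0.67 and 0.39. Peaks over 5 kb from a TSS gave an excess of 2.91 and WGATAR in place of WGATAA 2.84. The count of erythroid genes with a composite peak was 53 at 50 kb and 28 at 10 kb. The cause of these changes was not tested, apart from the smaller window and the shorter distance, which by construction admit fewer sites. CANNTG also admits words that do not end in CTG, so the 643 peaks are not a subset of the composite peaks. The alternative without peaks on the right of a stronger neighbour, chosen after seeing the data, gave 2285 composite peaks, 52.8%, 2.98, 0.90 and 0.55. The share of composite peaks within 50 kb of an erythroid gene was 3.33% in the main setting, against 2.17% of other distal peaks. Over all alternatives it was 2.83% to 3.96%, against 1.79% to 2.47% of other distal peaks. No paired analysis was possible because the samples form 1 group. Both replicates carry 1 biosample label, the depth and the scale of the signal are unknown, and no input signal was analysed here.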

Other observations

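Pairs of summits 180 to 260 bases apart were also present in each replicate's own list: the left peak was the stronger in 880 of 945 pairs in replicate 1 (93.1%) and in 725 of 775 pairs in replicate 2 (93.5%). Composites lay 180 to 260 bases to the left of 217 distal summits, 86 of which had another listed summit within 50 bases of that composite, and to the right of 118, of which 21 did. This was looked at after the left shoulder in the position of the composites was seen, and its cause was not tested.

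Of the 374 distal peaks with CAG 11 bases before WGATAA, 293 lay outside the palindrome CAGCTG. Of these, 49 were composite peaks through another CTG and WGATAA, with a median signal of 77.5, and the 244 without a composite had a median of 70.5, against 47.9 in all GATA-only peaks and 71.3 in composite peaks. Among E-boxes that end 8 bases before WGATAA, the 3 that start with CAG without being the palindrome summed to 49 peaks and the 3 others that end in CTG to 86, against 131 over the 9 words of neither kind. These counts were chosen after the excess at 11 bases was seen. That excess was not the only one, since CAG with 0 bases between was in 352 peaks, with a median signal of 56.9.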
